A study of Mus musculus with 4 samples.

Results

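The interferon regulatory factors (IRFs) were examined in sorted B cells of mouse cervical lymph nodes through the genes Irf1, Irf2, Irf3, Irf5, Irf7, Irf8 and Irf9. These 7 genes were picked by name from the 23418 gene symbols counted, with earlier results of these data known. RNA sequencing was done on 2 libraries from NOD.B10 mice and 2 libraries from BL/10 mice, the control strain. NOD.B10 is an NOD-derived strain with the C57BL/10 major histocompatibility region, studied for its Sjögren-like disease. No treatment is named for either group, and age, sex and the number of animals behind a library are not given in the sources used here. P-values therefore measure the spread between these libraries, which may be technical.

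IRFs are transcription factors that share a DNA-binding domain reading GAAA repeats. In the type I interferon response, sensors of nucleic acids lead to phosphorylation of IRF3, IRF5 and IRF7, which switch on interferon genes. Secreted interferon then signals through its receptor to ISGF3, the complex of IRF9 with STAT proteins, which binds the interferon-stimulated response element (ISRE) of many antiviral genes, Irf7 among them. IRF1 is induced by interferon gamma through a STAT site called the gamma-activated sequence (GAS), IRF2 competes with it for the same DNA, and IRF8 works with PU.1 in B cells and myeloid cells.

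The 4 libraries held 19328803 to 29372751 reads, and 13075 genes entered the test. In the B cell marker list 1 of 13 tested genes was called, Fcer2a, which was higher, and the summed level of the list was 13028 and 13465 CPM in NOD.B10 against 11733 and 11869 CPM in BL/10 (CPM are reads relative to the library total, scaled by TMM). T cell markers were lower in NOD.B10, with 17 of 18 called lower and a summed level of 63.4 and 61.8 CPM in NOD.B10 against 589 and 702 CPM in BL/10. Natural killer cell markers summed to 2.85 and 3.92 CPM in NOD.B10 against 15.3 and 27.8 CPM in BL/10, with 6 of 6 tested called lower. Klrd1 and Klrk1, both called, had 0 reads in NOD.B10. So did Gzma and Gzmb, which were not tested. In BL/10 Gzma had 10 and 32 reads and Gzmb 2 and 15 reads. Klra4 had 0 reads in all 4 libraries. Among dendritic cell markers 4 of 9 were called lower, namely Itgax, Klk1, Siglech and Bst2. Siglech, of plasmacytoid cells, had 2 and 2 reads in NOD.B10 against 37 and 82 reads in BL/10. Zbtb46, the 1 gene of the 9 with a positive log2 fold change, was not called (1.0, edgeR adjusted p = 0.12). It had 4.92 and 4.78 CPM in NOD.B10 against 1.59 and 3.3 CPM in BL/10. The whole list summed to 331 and 315 CPM in NOD.B10 against 358 and 335 CPM in BL/10. Most of that sum came from 1 gene that was not called, and without it the dendritic list summed to 31.5 and 26 CPM in NOD.B10 against 44.7 and 59.4 CPM in BL/10. Macrophage and monocyte markers were called lower in 3 of 11 cases, neutrophil markers in 2 of 3 and erythroid markers in 3 of 4. Of all genes tested, 8.63% were called lower. In the macrophage and monocyte list the other 8 were not called, and 1 of them, Emr1, had a positive log2 fold change (0.64, edgeR adjusted p = 0.138). Plasma cell markers, of which 2 of 6 were called lower, summed to 306 and 284 CPM in NOD.B10 against 961 and 351 CPM in BL/10, and without their most abundant gene, Igj, to 292 and 277 CPM in NOD.B10 against 353 and 233 CPM in BL/10. Fewer cells of a type and less RNA per cell cannot be told apart in these bulk libraries.

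Of the 7 factors, all of which passed the filter on low counts, Irf7 and Irf9 were lower in NOD.B10 and the other 5 were not called. Of all genes tested, 15.2% were called in either direction, 8.63% lower and 6.55% higher in NOD.B10 (adjusted p under 0.05, edgeR quasi-likelihood test with Benjamini-Hochberg adjustment). No factor was called higher by edgeR, DESeq2 or limma-voom, and 1, Irf8, had an unadjusted p under 0.05 with a positive fold change. The median log2 fold change of the 7 was −0.13, against −0.0032 over all genes tested. Library ranges did not overlap between the strains for 5 of the 7 factors, which says little by itself because 55.6% of all genes tested were separated in that way.

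**Figure D1:**
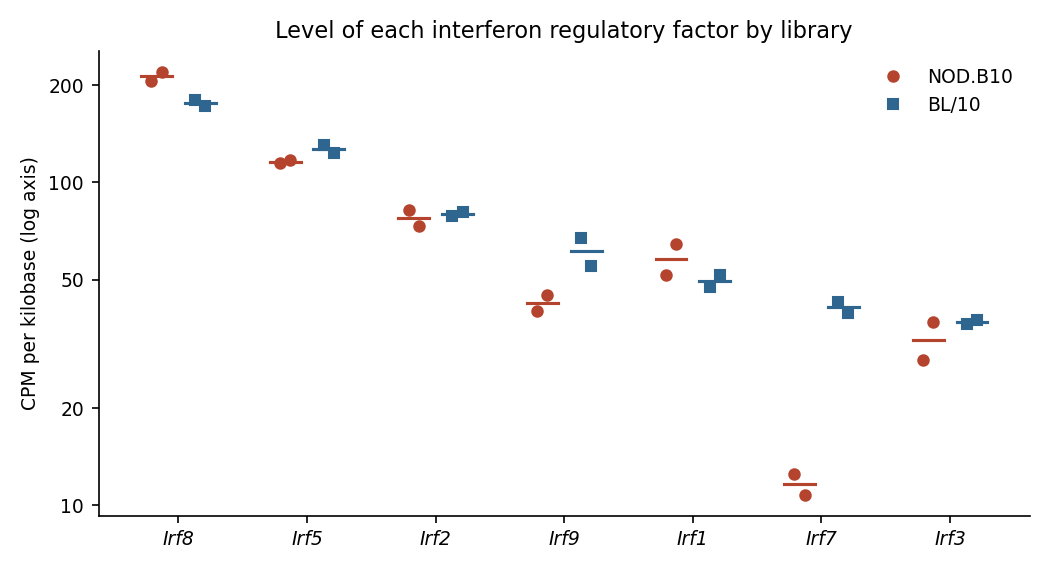
Level of each factor in each library, in CPM per kilobase of the deposited gene length on a log axis, with NOD.B10 as circles, BL/10 as squares and the group mean as a bar. Irf7 lies between 10.8 and 12.5 in NOD.B10 and between 39.4 and 42.6 in BL/10, while Irf8 is the highest factor in both strains.

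Irf7, the factor that amplifies type I interferon production, lies on the minus strand of chromosome 7 (141263183 to 141266499, RefSeq genes on GRCm38.p6, the assembly of the mm10 build). It had 448 and 512 reads in the NOD.B10 libraries, against 2343 and 1891 reads in the BL/10 libraries. In scaled terms this was 23.2 and 20.1 CPM in NOD.B10, against 79.1 and 73.3 CPM in BL/10. Both NOD.B10 libraries lay far below both BL/10 libraries, and the spread within either strain was small beside the gap. The means were 21.6 ± 2.24 CPM in NOD.B10 and 76.2 ± 4.13 CPM in BL/10 (SD, n = 2 each), so Irf7 stood at 28.3% of its BL/10 level. The log2 fold change, NOD.B10 over BL/10, was −1.82 (SE 0.136, edgeR adjusted p = 9.73e-07), with a 95% interval of −2.11 to −1.52. Only 5.42% of the genes tested had a lower fold change. With any 1 library left out the log2 fold change stayed between −1.94 and −1.71 and the call held. Exons of Irf7 share 45 bases (1.19%) with Phrf1 on the opposite strand, and Phrf1 did not pass the test (log2 fold change 0.00, adjusted p = 0.992).

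Irf9, the DNA-binding subunit of ISGF3, lies on chromosome 14 (55603985 to 55610030, plus strand). Its reads numbered 2074 and 3070 in NOD.B10, against 5366 and 3827 in BL/10. This amounted to 107 and 120 CPM in NOD.B10, against 181 and 148 CPM in BL/10. The strains did not overlap, but the BL/10 libraries differed from each other by more than the NOD.B10 libraries did, the first BL/10 library being the highest of the 4. Irf9 averaged 114 ± 9.01 CPM in NOD.B10 and 165 ± 23.3 CPM in BL/10, 69.1% of the BL/10 level (log2 fold change −0.53, SE 0.126, edgeR adjusted p = 0.0113). The call was lost with the first BL/10 library left out (log2 fold change −0.38, adjusted p = 0.0595) and with the first NOD.B10 library left out (−0.47, adjusted p = 0.05004). That BL/10 library also had the highest sum of plasma cell markers, 961 CPM, whose part in the Irf9 value was not tested. Irf9 shares 123 exonic bases (2.28%) with Rnf31 on the same strand, which did not pass the test (log2 fold change −0.33, adjusted p = 0.126).

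Markers of T cells (17 of 18) and natural killer cells (6 of 6) were called lower together with Irf7 and Irf9. So were 3 of 11 macrophage, 4 of 9 dendritic and 2 of 6 plasma cell markers, against 8.63% of all genes tested. The part of these cell types in the lower level of either factor was not tested. The 1 called gene of the B cell list, Fcer2a, was higher.

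The bases before the starts of the 2 factors that fell are shown because both genes are known to answer to interferon. A search on both strands of the RefSeq promoter windows (250 bases before to 50 after each start, build GRCm38.p6) for the ISRE core, GAAANN followed directly by GAAA, and for the GAS TTCNNNGAA, which reads the same on both strands, found no match in the windows of Irf7 and Irf9. The stretches below are the last 150 bases before the start used for each window, 5′ to 3′ on the gene's strand, at chr7:141266425-141266574 (minus strand) for Irf7 and chr14:55603835-55603984 (plus strand) for the first start of Irf9, all in lower case because no motif was found. The start used for the Irf7 window lies inside the gene span given above, so part of its stretch is within that span. Elements that depart from the searched letters or lie outside the windows would be missed, so no match does not mean no element.
Irf7: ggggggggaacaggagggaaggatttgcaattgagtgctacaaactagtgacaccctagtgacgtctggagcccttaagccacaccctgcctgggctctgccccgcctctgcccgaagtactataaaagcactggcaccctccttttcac
Irf9: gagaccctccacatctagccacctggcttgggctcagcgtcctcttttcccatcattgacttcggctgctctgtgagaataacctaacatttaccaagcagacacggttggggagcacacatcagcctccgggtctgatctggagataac

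Irf3 and Irf5, which share with Irf7 the task of turning sensor signals into interferon and cytokine transcription, did not pass the test. Irf3 (chromosome 7, 44997648 to 45002848) had 61.7 and 81.0 CPM in NOD.B10, against 79.7 and 81.9 CPM in BL/10. The second NOD.B10 library lay inside the BL/10 range and only the first was lower, so the strains overlapped. Its log2 fold change was −0.18 (95% interval −0.48 to 0.12, adjusted p = 0.47), and ranged from −0.39 without the second NOD.B10 library to −0.01 without the first, not called in either case. Irf5 (chromosome 6, 29526130 to 29541869), a factor downstream of Toll-like receptors that is linked to autoimmunity in people, had 276 and 281 CPM in NOD.B10, against 314 and 295 CPM in BL/10. Both NOD.B10 libraries were a little lower, and the interval of the log2 fold change, −0.35 to 0.09, included 0 (estimate −0.13, adjusted p = 0.481). Irf5 shares 411 exonic bases (14.1%) with Tnpo3 on the opposite strand, so its count may hold some reads of that gene. Irf3 shares 88 exonic bases (2.56%) with Bcl2l12, also on the opposite strand.

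Irf1 and Irf2 bind the same elements with opposite effect, IRF1 mostly as an activator and IRF2 mostly as its competitor, and neither passed the test. Irf1 (chromosome 11, 53770014 to 53778374) had 174 and 216 CPM in NOD.B10, against 159 and 174 CPM in BL/10. The first NOD.B10 library was level with the second BL/10 library, and the second NOD.B10 library was the highest. The log2 fold change was 0.23 (95% interval −0.04 to 0.50, adjusted p = 0.262) and ranged from 0.06 without the second NOD.B10 library to 0.37 without the first, not called in either case. Irf1 shares 135 exonic bases (3.4%) with Gm17334 on the opposite strand, which is not among the symbols counted. Irf2 (chromosome 8, 46739745 to 46847458) had 204 and 182 CPM in NOD.B10, against 195 and 202 CPM in BL/10. Its libraries were interleaved, with a log2 fold change of −0.04 (95% interval −0.27 to 0.20, adjusted p = 0.879).

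Irf8, a lineage factor of B cells and of plasmacytoid and conventional dendritic cells, had the highest CPM of the 7 and was not called. It lies on chromosome 8 (120736358 to 120756694) and had 583 and 622 CPM in NOD.B10, against 509 and 490 CPM in BL/10. Both NOD.B10 libraries lay above both BL/10 libraries. The means were 603 ± 28 CPM in NOD.B10 and 499 ± 13.2 CPM in BL/10 (SD, n = 2 each), with a log2 fold change of 0.27 (SE 0.098, 95% interval 0.06 to 0.48). Its unadjusted p was 0.0159 and its adjusted p 0.0844, and no alternative called it. Dendritic cell markers, which mark other cells known to express Irf8, were called lower in 4 of 9 cases, against 8.63% of all genes tested. Of the 4, Bst2 is also an ISRE target. The other 5 were not called, and 1 of them, Zbtb46, had a positive log2 fold change (1.0, edgeR adjusted p = 0.12). The part of dendritic cells in the Irf8 level was not tested.

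Among the members, promoter windows of Irf1, Irf2 and Irf8 held a motif, and the stretches are shown with 20 bases on either side where the window allows, since they carry the elements through which IRFs and STAT proteins are known to act on each other. The ISRE core was in 1 of the 10 windows of the 7 genes, against 3.44% of 32851 windows of all genes, and the GAS in 3 of 10, against 8.3% of all windows. Capitals mark a GAS in Irf1 (chr11:53769904-53769952), an ISRE core followed by a GAS in Irf2 (chr8:46739495-46739549) and 2 GAS matches in Irf8 (chr8:120736167-120736233), all on the plus strand and in GRCm38.p6.
Irf1: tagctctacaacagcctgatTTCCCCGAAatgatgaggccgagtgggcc
Irf2: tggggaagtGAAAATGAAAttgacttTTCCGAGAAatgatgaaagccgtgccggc
Irf8: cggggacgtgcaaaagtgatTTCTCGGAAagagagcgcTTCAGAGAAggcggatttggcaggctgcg
None of these 3 genes was called, and neither were Irf3 and Irf5, which had no match. A match of letters is not a bound site.

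**Figure D2:**
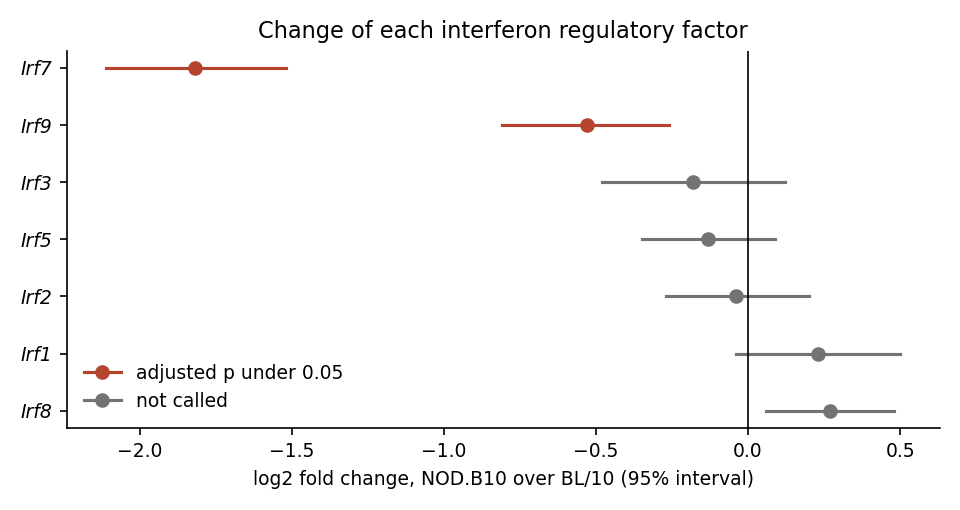
Log2 fold change of each factor, NOD.B10 over BL/10, with its 95% interval from the edgeR test. Irf7 (−1.82) and Irf9 (−0.53) are called lower, and the other 5 estimates lie between −0.18 and 0.27.

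Per kilobase of the deposited gene length, Irf8 was the highest factor in both strains, at 213 ± 9.91 CPM per kilobase in NOD.B10 and 177 ± 4.66 CPM per kilobase in BL/10. Irf5 and Irf2 followed in both. Below them the order differed. In NOD.B10 it ran Irf1 (58.1 ± 8.96), Irf9 (42.4 ± 3.35), Irf3 (32.6 ± 6.21) and Irf7 (11.6 ± 1.2 CPM per kilobase). In BL/10 it ran Irf9 (61.3 ± 8.65), Irf1 (49.5 ± 3.1), Irf7 (41 ± 2.22) and Irf3 (36.9 ± 0.71 CPM per kilobase). Neighbours in either order did not overlap in their library values. Irf7 made up 2.11% of the summed level of the 7 factors in NOD.B10 and 7.16% in BL/10, and Irf8 38.6% in NOD.B10 and 30.9% in BL/10. Order and shares rest on the deposited lengths, which differ unevenly from the exonic bases of the GENCODE gene models. These are 2827 against 7055 for Irf8, 2392 against 2905 for Irf5 and 2484 against 7396 for Irf2. The order with the GENCODE lengths was not tested and may differ.

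Ratios of reads within a library need no scaling between libraries and showed the same separation of Irf7. There were 0.376 and 0.248 reads of Irf7 per read of Irf3 in the NOD.B10 libraries, against 0.993 and 0.895 in the BL/10 libraries. Per read of Irf9, Irf7 had 0.216 and 0.167 reads in NOD.B10 and 0.437 and 0.494 reads in BL/10. Thus Irf7 was lower in NOD.B10 relative to each of these partners in every library. The ratio of Irf9 to Irf3 was 1.74 and 1.49 in NOD.B10 against 2.27 and 1.81 in BL/10, groups that lay next to each other without overlap. For the pair of competitors, Irf1 over Irf2, it was 0.85 and 1.19 in NOD.B10 against 0.813 and 0.86 in BL/10, which overlapped. Irf8 over Irf5 was 2.11 and 2.22 in NOD.B10 against 1.62 and 1.66 in BL/10.

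**Figure D3:**
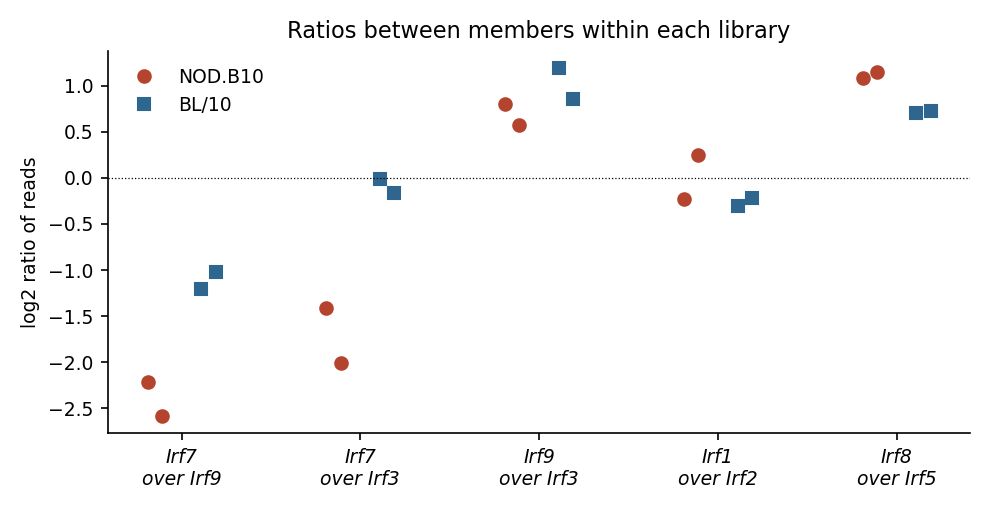
Log2 ratio of reads between pairs of factors within each library, with NOD.B10 as circles and BL/10 as squares. Irf7 over Irf3 lies at −1.41 and −2.01 in NOD.B10 and at −0.01 and −0.16 in BL/10.

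Most known targets of the ISRE-binding factors were lower in NOD.B10. Of 60 ISRE targets tested, 43 were lower in NOD.B10, 1 was higher and 16 were not called, which is 71.7% lower against the background of 8.63%. The list leaves out the IRFs themselves. It was chosen with earlier results of these data known, so the contrast is a description. The median log2 fold change was −0.91, against −0.0032 over all genes tested. Of the 60, 17 had a lower fold change than Irf7 and 39 a lower one than Irf9. With any 1 library left out, 38 to 42 were called lower. The NOD.B10 libraries also had less of the T cell markers, 63.4 and 61.8 CPM against 589 and 702 CPM in BL/10, whose part in these falls was not tested.

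The targets with the smallest adjusted p were antiviral effectors. Oas3, of the family that makes the RNase L activator, had 7.57 and 7.13 CPM in NOD.B10, against 60.4 and 57.3 CPM in BL/10 (adjusted p = 3.3e-08). Rsad2, which encodes viperin, had 0.674 and 0.588 CPM in NOD.B10, against 24.7 and 35.8 CPM in BL/10. Eif2ak2, the RNA-dependent kinase PKR, had 15.5 and 14.8 CPM in NOD.B10, against 73.0 and 72.4 CPM in BL/10, with log2 fold change −2.26 (SE 0.135) and adjusted p = 9.36e-08. In all 3 genes the strains were far apart, while the BL/10 libraries differed from each other most for Rsad2. Ifit3, of a family that binds viral RNA, had 3.01 and 2.47 CPM in NOD.B10, against 23.5 and 27.1 CPM in BL/10. Oas2 had 2.02 and 2.04 CPM in NOD.B10, against 28.3 and 20.1 CPM in BL/10. The single target that was higher was Pml, a nuclear body protein, with 865 and 817 CPM in NOD.B10 against 644 and 629 CPM in BL/10 (log2 fold change 0.40, adjusted p = 0.012), a call lost with the first NOD.B10 library left out (adjusted p = 0.141). Oas and Ifit genes have close paralogues that the counting may have split.

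ISRE sequences of targets are shown to set the element beside the size of the change. Capitals mark the longer consensus, in which CT follows that core, on either strand, present in 0.271% of all 32851 windows, in the bases before the start used for the window, on the gene's strand, in GRCm38.p6. The genes shown were picked after their values were seen, to span falls of different size and no call. Ifit1, Oas1a and Ddx60 are in the ISRE list, while Gbp3 and Gbp2 are in the list of IRF1 and GAS targets below. The gene that was not called is thus not from the ISRE list. They are Ifit1 (chr19:34640773-34640823, plus strand), Oas1a (chr5:120907526-120907555, minus strand), Ddx60 (chr8:61928024-61928086, plus strand), Gbp3 (chr3:142559987-142560024, plus strand) and Gbp2 (chr3:142620592-142620623, plus strand).
Ifit1: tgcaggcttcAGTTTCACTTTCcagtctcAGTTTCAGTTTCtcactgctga
Oas1a: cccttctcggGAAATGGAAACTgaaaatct
Ddx60: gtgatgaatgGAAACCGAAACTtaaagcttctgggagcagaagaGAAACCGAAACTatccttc
Gbp3: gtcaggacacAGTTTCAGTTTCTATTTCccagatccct
Gbp2: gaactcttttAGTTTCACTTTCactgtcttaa
The log2 fold changes, NOD.B10 over BL/10, were −3.40 for Ifit1, −2.48 for Oas1a, −1.45 for Ddx60 and −0.89 for Gbp3, each called lower, and 0.37 for Gbp2, which was not called (adjusted p = 0.356) but was called higher with the first NOD.B10 library left out (0.65, adjusted p = 0.00994). The first element of Ifit1 and the element of Gbp2 have the same letters.

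Targets of IRF1 and the GAS were called in both directions. Of 35 tested, 4 were lower (background 8.63%), 5 were higher (background 6.55%) and 26 were not called, with a median log2 fold change of −0.12. Serpina3g, a serine protease inhibitor, had 101 and 119 CPM in NOD.B10 against 52.4 and 49.4 CPM in BL/10 (log2 fold change 1.11, adjusted p = 3.9e-05). Ciita, the class II transactivator, and the GTPase gene Ifi47 were also higher, with log2 fold changes of 0.61 and 0.54. Gbp3, a guanylate-binding GTPase, had 24.7 and 26.4 CPM in NOD.B10 against 51.1 and 43.8 CPM in BL/10 (log2 fold change −0.89, adjusted p = 0.000867). The cytokine gene Il15 had 2 and 0 reads in NOD.B10 against 30 and 40 reads in BL/10 (adjusted p = 0.00768). Without the second NOD.B10 library 3 genes were called higher, Ifi47 and Casp1 losing their calls (adjusted p = 0.0661 and 0.172). Irf1 itself was not called.

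IRF8 partners and targets contained no gene called lower (background 8.63%), also with DESeq2, with limma-voom or at an unadjusted p under 0.05. Of 14 tested, 2 were higher, 14.3% against the background of 6.55%, and 12 of 14 had a positive log2 fold change with a median of 0.14. Cst3, the protease inhibitor cystatin C, had 177 and 163 CPM in NOD.B10 against 87.2 and 96.0 CPM in BL/10 (log2 fold change 0.89, SE 0.115, adjusted p = 1.31e-04). The number called higher was 1 without the first BL/10 library or without either NOD.B10 library and 5 without the second BL/10 library, where Ikzf3, Bcl6 and Pax5 were added.

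**Figure D4:**
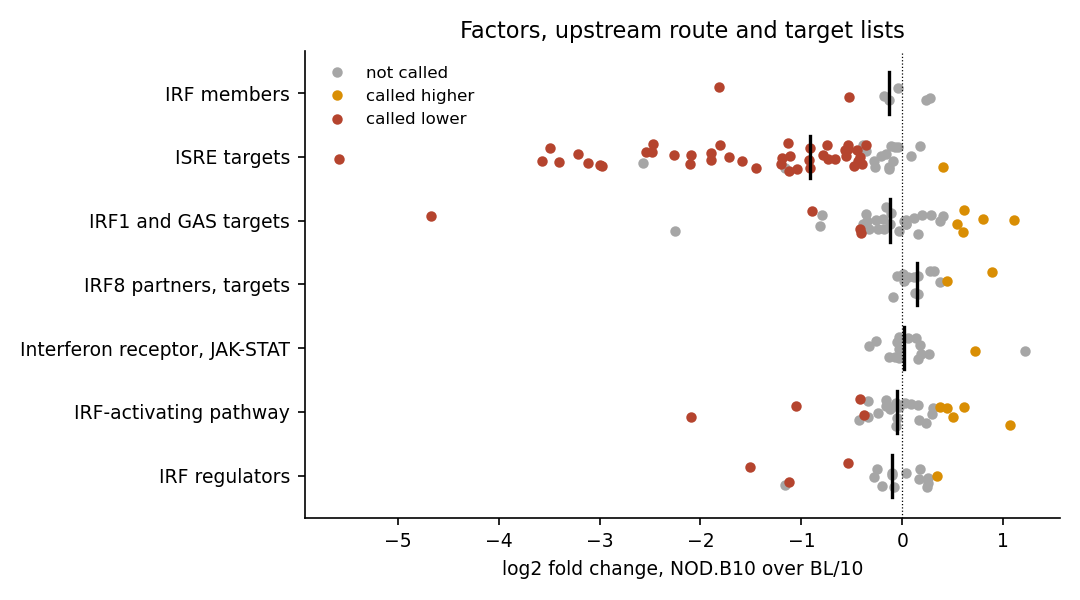
Log2 fold change, NOD.B10 over BL/10, of every tested gene of each list, coloured by call, with the median of the list as a bar; vertical scatter is for display only. The ISRE targets reach −5.58 with a median of −0.91, while the medians of the other lists lie between −0.13 and 0.14.

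Apart from Irf9, the route from the interferon receptor to ISGF3 held no gene called lower in the test on all 4 libraries. Of 16 receptor and JAK-STAT genes tested, 0 were called lower by edgeR, DESeq2 or limma-voom. By edgeR 8.63% of all genes tested were called lower, so 0 of 16 says little by itself. In that direction 0 of the 16 had an unadjusted p under 0.05. Ifnar1, a chain of the type I interferon receptor, had 162 and 211 CPM in NOD.B10 against 237 and 208 CPM in BL/10 (log2 fold change −0.26, adjusted p = 0.255), and was called lower only with the second NOD.B10 library left out (−0.46, adjusted p = 0.0477). Its partner Ifnar2 had 62.1 and 66.2 CPM in NOD.B10 against 62.8 and 68.3 CPM in BL/10. Stat2, a partner of IRF9 in ISGF3, had 136 and 170 CPM in NOD.B10 against 176 and 160 CPM in BL/10 (log2 fold change −0.13, adjusted p = 0.586). Socs3, a feedback inhibitor of cytokine receptors, was the only gene of the list called with all 4 libraries (background 6.55% higher). It had 34.0 and 30.1 CPM in NOD.B10 against 18.4 and 20.3 CPM in BL/10 (log2 fold change 0.72, adjusted p = 0.00755). Without the second BL/10 library Ptpn6 was called higher as well, and without the first NOD.B10 library Ifnlr1, so that 2 genes were higher.

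Interferon genes themselves were hardly detected. Of 14 listed, 12 had 0 reads in all 4 libraries, among them Ifnb1 and the Ifna genes of the list. This allows a level of up to 0.0671 CPM in NOD.B10 and 0.054 CPM in BL/10 (3 reads over the group, counting error only). Ifng had 4 and 2 reads in NOD.B10 against 4 and 8 reads in BL/10. Ifnk, a keratinocyte interferon, had 2.75 and 1.29 CPM in NOD.B10 against 0.946 and 0.504 CPM in BL/10 and was not called (adjusted p = 0.137).

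Genes of the sensing route to IRF3, IRF5 and IRF7 were called in both directions. The list holds sensors, adaptors and kinases, and also Trex1 and Samhd1, enzymes that limit sensing, of which Samhd1 is among those called lower. Of 28 tested, 4 were lower (background 8.63%), 5 were higher (background 6.55%) and 19 were not called, with a median log2 fold change of −0.05. Ifih1, the RNA sensor MDA5, had 4.61 and 3.72 CPM in NOD.B10 against 18.3 and 17 CPM in BL/10 (log2 fold change −2.09, SE 0.23, adjusted p = 3.45e-05). Tlr7, an endosomal receptor for single-stranded RNA, had 59.9 and 60.8 CPM in NOD.B10 against 133 and 118 CPM in BL/10 (log2 fold change −1.05, adjusted p = 3.85e-05). Both genes showed little spread within a strain. Ddx58, the RNA sensor RIG-I, was also lower (−0.42, adjusted p = 0.0145), a call lost without either NOD.B10 library (adjusted p = 0.0724 and 0.0798). Ifih1 and Ddx58 are in the ISRE list too, so these are not separate results.

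Among the genes of that route that were higher, Tank, an adaptor of the kinase TBK1, had 138 and 119 CPM in NOD.B10 against 76.1 and 92.2 CPM in BL/10 (log2 fold change 0.61, adjusted p = 0.00615). Ikbkb, the kinase IKK beta that phosphorylates IRF5, had 219 and 238 CPM in NOD.B10 against 163 and 161 CPM in BL/10 (log2 fold change 0.50, adjusted p = 0.00652), a call lost with the second NOD.B10 library left out (adjusted p = 0.0572). The remaining kinases, adaptors and receptors named here were not called. Tbk1, the kinase of IRF3 and IRF7, had 84.5 and 99.8 CPM in NOD.B10 against 106 and 100 CPM in BL/10 (adjusted p = 0.45). Its relative Ikbke had a log2 fold change of −0.34 (adjusted p = 0.195). The adaptors Mavs and Myd88 had log2 fold changes of 0.09 and −0.16, and the DNA receptor Tlr9 had 0.17, although Tlr9 was called higher with the second BL/10 library left out (0.39, adjusted p = 0.0321). The number lower was 2 without the first NOD.B10 library. The number higher was 3 without the first BL/10 library, 3 without the first NOD.B10 library and 2 without the second NOD.B10 library.

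Of 17 tested genes for proteins that act on IRFs, 3 were lower (background 8.63%), 1 was higher (background 6.55%) and 13 were not called. Usp18 and Trim21, 2 of the 3 that were lower, are also counted among the ISRE targets, so these are not separate results. Usp18, which dampens interferon receptor signalling, had 12.9 and 16.5 CPM in NOD.B10 against 34.3 and 30.0 CPM in BL/10 (log2 fold change −1.12, adjusted p = 7.23e-04). Trim21, the ligase Ro52 that ubiquitinates IRFs, had 32.7 and 37.4 CPM in NOD.B10 against 51.1 and 51.2 CPM in BL/10 (log2 fold change −0.54, adjusted p = 0.0137), a call lost with the first NOD.B10 library left out (adjusted p = 0.0978). Dusp4, a phosphatase gene, was also lower (−1.51, adjusted p = 9.28e-05). Irf2bpl, a relative of the IRF2-binding corepressors, was higher (0.34, adjusted p = 0.0402), a call lost with a replicate block (adjusted p = 0.0686), with the second BL/10 library left out (adjusted p = 0.0856) and without either NOD.B10 library (adjusted p = 0.198 and 0.181). The IRF2 corepressors proper, Irf2bp1 and Irf2bp2, had log2 fold changes of −0.08 and −0.28 and did not pass the test, although Irf2bp2 was called lower with the second BL/10 library left out (−0.42, adjusted p = 0.00996).

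The genes whose pattern over the 4 libraries was nearest to each factor, by Euclidean distance between centred log2 CPM values, are given as a description, since 4 libraries in 2 groups fix little beyond the difference between strains. For Irf7, with a log2 fold change of −1.82, they were Ndrg4 (distance 0.07, log2 fold change −2.43, with under 1 CPM in every library) and the potassium channel gene Kcnk5 (distance 0.0857, log2 fold change −1.85). For Irf9 they were Trmt1 (0.0435), a tRNA methyltransferase gene, and Tspan5 (0.0554), a tetraspanin gene. Irf8 was closest to Cyfip1 (0.017) and Slmap (0.0235). Irf1 was closest to the DNA sensor gene Aim2 (0.0328) and to Kdelc2 (0.0354), Irf2 to Plekho2 (0.0107) and Proser1 (0.0155), Irf3 to Gclm (0.0279) and Rnaseh2c (0.0323), and Irf5 to Fzr1 (0.0144) and Tmem214 (0.0172).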

How the data were processed

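The authors deposited 1 table of raw read counts per gene symbol, with a gene length, for 4 libraries. Per the submitters' processing notes, HISAT2 2.1.0, SAMtools 1.3, Subread 1.6.5 and featureCounts were used with build mm10; annotation, strand setting and treatment of multiply aligned reads are not given in the sources used here, so overlapping, antisense and paralogous genes carry uncertain counts. Whether reads of NOD.B10 aligned to that build as well as reads of BL/10 did was not tested. Columns were matched to samples by library name. Groups were compared with edgeR 4.0.16 (quasi-likelihood, robust, two-sided, R 4.3.3) after TMM scaling and filterByExpr (minimum count 10, minimum total 15), which kept 13075 of 23418 genes, with Benjamini-Hochberg adjustment over them. The procedure was tested on simulated counts. SEs are the unshrunk log2 fold change over the root of F, and 95% intervals use the t distribution of the test. CPM are over TMM-scaled totals, given per kilobase of the deposited length only to compare genes. Shared exonic bases and their percentages are from GENCODE gene models, which may differ from those counted. Irf7 has 3776 exonic bases there against a deposited length of 1859. Alternatives were RLE and upper-quartile factors, no filter, DESeq2 1.42.0, limma-voom (limma 3.58.1), a replicate block and leaving out each library, which assumes that a lone library varies like the others.

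Members and lists were chosen with earlier results of these data known. Named are all members, up to 5 called genes of each list by adjusted p (2 by unadjusted p where none was called), a fixed upstream route, and the 2 nearest patterns of each member. Any other gene was picked after its values were seen. Promoter windows came from RefSeq (GRCm38.p6) for 7 of 7 members; only 46 of 60 ISRE targets and 25 of 36 IRF1 and GAS targets had one, under the minimum of 80%, so shares of those lists with a motif are void and not given. Spi1 was counted as Sfpi1. Some genes that the naming rule picks are not reported here.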

Additional observations from a re-analysis of the deposited data

How the results depend on the processing

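Directions of all 7 factors and the calls of Irf7 and Irf9 were the same with RLE or upper-quartile factors, no filter, DESeq2, limma-voom and a replicate block. With 1 library left out, Irf2 changed sign (0.04 without the second NOD.B10 library; range −0.14 to 0.04, not called) and Irf9 ranged from −0.68 to −0.38, losing its call in 2 of 4 cases. Nothing in the labels pairs the replicate numbers, and the deviations of same-numbered libraries had a correlation of −0.0165 across genes. With the replicate block 2 factors and 41 ISRE targets were lower, and 0 IRF regulators were higher. With no filter 7 IRF1 and GAS targets were lower, 4 IRF8 partners and targets higher and 2 receptor and JAK-STAT genes higher. With the longer consensus 0 member windows held an ISRE. Leaving out 1 library gave 1 to 2 factors lower, 0 to 1 ISRE targets higher, 3 to 6 IRF1 and GAS targets lower and 3 to 5 higher, 1 to 5 IRF8 partners and targets higher, 0 to 1 receptor and JAK-STAT genes lower and 1 to 2 higher, 2 to 4 activating-pathway genes lower and 2 to 5 higher, and 0 to 1 IRF regulators higher. The cause of these shifts was not tested. With 2 libraries a group, changes as small as those of Irf1, Irf3, Irf5 and Irf8 were not resolved.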

Other observations

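The table also holds Irf4, a factor of B cell activation and plasma cell formation. Irf4 had 389 and 334 CPM in NOD.B10 against 351 and 327 CPM in BL/10 (log2 fold change 0.09, edgeR adjusted p = 0.662).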
